A study of Homo sapiens with 30 samples.

Results

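DNA replication and the passage from G1 to S phase were followed through the transcripts of 40 genes in cells of HT29, an established line from a human colorectal adenocarcinoma, treated with extracts of traditional herbal formulas. The 40 symbols were chosen with earlier results of these data known, though mapping them to rows uses no measured value. The genes were the rows of the deposited table whose Ensembl identifiers map to these symbols, 40 of 60675 rows. They comprised the 6 subunits of the MCM2 to MCM7 helicase, 4 licensing factors, 6 factors that fire origins, 6 polymerase and primase subunits, the sliding clamp PCNA with 5 clamp loader subunits, 4 genes of lagging strand maturation and single-strand binding, 3 enzymes of deoxynucleotide supply, 3 G1/S regulators (CCNE1, CCNE2, E2F1), and UHRF1 with SLBP. All 40 passed the filter on low counts, with a lowest count of 167 in any library.

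In G1, the origin recognition complex, CDC6 and CDT1 load the MCM helicase onto origins, which licenses them for a single round of replication. At the start of S phase, cyclin E with its kinase and the CDC7 kinase bring CDC45, the GINS complex and MCM10 to the helicase, after which polymerases copy DNA, held to it by a PCNA ring that replication factor C loads. Many of these genes are known targets of E2F factors, which the retinoblastoma protein restrains until cyclin-dependent kinases phosphorylate it.

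The 30 libraries were RNA sequencing libraries of cells treated for 24 h with a 70% ethanol extract or with vehicle. Soshiho-tang and Yijin-tang had 3 libraries at each of 20, 100 and 500 µg/mL. Okbyeongpung-san had 2 libraries at each dose, replicate 2 in batch E and replicate 3 in batch D, and Soyo-san had 1 library per dose, in batch D. Vehicle had 3 libraries, in batch E with all Soshiho-tang and Yijin-tang libraries, and the labels do not say what a batch is. The vehicle was 0.1% DMSO by the labels and 2% DMSO by the design text, and extracts with an IC20 under 500 µg/mL were to be used at that IC20, so solvent and doses are uncertain and label doses are given here. The 10 µM wortmannin control of the design text is not analysed here. Whether replicates came from separate cultures is not stated, so every p-value here reflects the scatter of these libraries alone, which may be technical.

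Library totals lay between 18.5 and 36.2 M counts. The vehicle pairs had the largest chi-square per degree of freedom, 18.6 and 18.2 for the pairs with vehicle library 1 and 10.3 for the third pair. Pairs within extract groups had 2.3 to 9.55, the last an Okbyeongpung-san pair at 100 µg/mL from batches E and D. This measure grows with library depth, and the vehicle libraries had 36.2, 25.4 and 28.7 M counts, against a median of 24.2 M over all libraries. The library names of the 3 vehicle samples differ in form from those of the extracts. Against vehicle, an effect of that library set cannot be told apart from an effect of the extract. Fold changes of 500 against 20 µg/mL compare no vehicle library, but vehicle libraries share the fit that sets their SEs and p-values. Of the epithelial markers, EPCAM averaged 519 to 557 CPM (counts scaled to the TMM-adjusted library total) over the groups and KRT8 5710 to 6920 CPM, while CDX2 averaged 2.63 to 4.41 CPM. Of 8 markers of leukocytes, fibroblasts, endothelium and hepatocytes, 5 did not pass the filter, and PTPRC, CD3E, CDH5 and ALB were at or near 0. The 8 summed to 8.11 to 9.25 CPM in the libraries with Soshiho-tang at 500 µg/mL, 7.06 to 8.28 CPM with Yijin-tang at that dose and 7.48 to 11.5 CPM in vehicle. Of 10 epithelial markers 4 fell with Soshiho-tang at 500 µg/mL against vehicle (CDX1 -0.96, VIL1 -0.54, LGALS4 -0.31 and KRT19 -0.17 on the log2 scale) and none rose, where 18.3% of all genes were called lower. CDX1 was low, with means of 0.466 CPM there and 0.907 CPM in vehicle. With Yijin-tang at that dose 4 fell (KRT19 -0.29, LGALS4 -0.18, VIL1 -0.16 and KRT8 -0.15) and none rose, where 8.39% of all genes were called lower. At 500 against 20 µg/mL of Soshiho-tang 2 rose and 4 fell, where 13.3% and 13.5% of all genes did. With Yijin-tang none rose and 1 fell, where 1.13% of all genes fell. Of the 3 other-cell markers tested, COL1A1 fell (-0.88) and PECAM1 rose (0.54) with Soshiho-tang, and CD68 fell with Yijin-tang (-0.47). These too were low, with means of 0.936 CPM (COL1A1) and 1.85 CPM (PECAM1) with Soshiho-tang and 4.97 CPM (CD68) with Yijin-tang. In vehicle they had 1.71, 1.29 and 6.92 CPM. The part of all these markers in the results was not tested. Mitochondrial transcripts took 9.06% to 10.8% of counts in the libraries with Soshiho-tang at 500 µg/mL and 11.5% to 13.9% in vehicle. With mitochondrial genes left out the same number of the 40 genes, 25, was called in that comparison. Against vehicle the count then fell from 26 to 24 with Yijin-tang at 500 µg/mL. At 20 µg/mL it fell from 8 to 6 with Soshiho-tang and from 7 to 4 with Yijin-tang. A different number of cells in S phase and a different amount of RNA per cell cannot be told apart in bulk libraries.

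Promoters are shown for genes that rose and genes that did not, since E2F sites are a known feature of such genes. Promoter windows from RefSeq (GRCh38.p14) were available for 35 of the 40 genes; MCM4, MCM5, GINS4, RPA2 and CCNE2 had no entry. The 250 bases before the start were searched on both strands for 4 words of the E2F consensus, TTTCCCGC, TTTGGCGC, TTTCGCGC and TTTGCCGC, which can overlap one another on opposite strands. At least 1 word was present for 14 of the 35 genes and for 3.4% of all 27305 genes with a window. The lines below run 5′ to 3′ on the gene's strand with the words in capitals. MCM6 (chr2:135876444-135876615, minus strand) holds the stretch TTTGGCGCGAAA in 2 copies, beginning at positions -152 and -90 from the start, and in each copy a word on each strand overlaps the other. The other stretches are 30 bases around 1 word, for RFC3 (chr13:33818083-33818112, plus strand), POLE (chr12:132687342-132687371, minus strand), CDT1 (chr16:88803743-88803772, plus strand), POLA2 (chr11:65261898-65261927, plus strand) and LIG1 (chr19:48170440-48170469, minus strand).
MCM6: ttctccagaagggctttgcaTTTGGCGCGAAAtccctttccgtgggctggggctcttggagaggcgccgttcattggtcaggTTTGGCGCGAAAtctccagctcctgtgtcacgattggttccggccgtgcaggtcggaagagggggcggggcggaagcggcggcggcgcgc
RFC3: atttggagctcGCGGGAAAacttgtctctg
POLE: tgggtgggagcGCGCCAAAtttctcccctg
CDT1: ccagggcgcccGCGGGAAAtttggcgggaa
POLA2: ttggctcccggTTTCGCGCatgcgtgcact
LIG1: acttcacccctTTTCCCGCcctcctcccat
MCM6, RFC3 and POLE rose against vehicle with both Soshiho-tang and Yijin-tang at 500 µg/mL, whereas CDT1, POLA2 and LIG1 rose in no comparison. A word was present in 9 of the 21 genes with a window that rose with both formulas at 500 µg/mL and in 4 of the 10 that rose with neither. The CCAAT word was found in 21 of the 35 genes against 37.0% of all genes, and the word TTTGAA, the core of the cell cycle homology region of G2/M promoters, in 1 against 16.1%. A match is a description of these letters only.

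With Soshiho-tang at 500 µg/mL 24 of the 40 genes rose against vehicle and 1, LIG1, fell, in edgeR's quasi-likelihood test at an adjusted p under 0.05. Of all 15882 genes tested, 39.2% were called in this comparison, 21% higher and 18.3% lower. With Yijin-tang at 500 µg/mL 26 rose and none fell, against 21% of all genes called in either direction, 12.7% higher and 8.39% lower. The median log2 fold change of the 40 genes was 0.17 in each comparison, against -0.01 over all genes for Soshiho-tang and 0.003 for Yijin-tang, so the changes were small: the largest, of RFC3, was 1.48-fold with Soshiho-tang and 1.4-fold with Yijin-tang. Both comparisons use the same 3 vehicle libraries. In CPM the libraries did not overlap with vehicle for 23 genes above and 1 below with Soshiho-tang, where 20.5% of all genes lay wholly above and 21.2% wholly below. With Yijin-tang 26 genes lay wholly above vehicle and 0 below, against 14.7% and 14.5% of all genes.

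**Figure D1:**
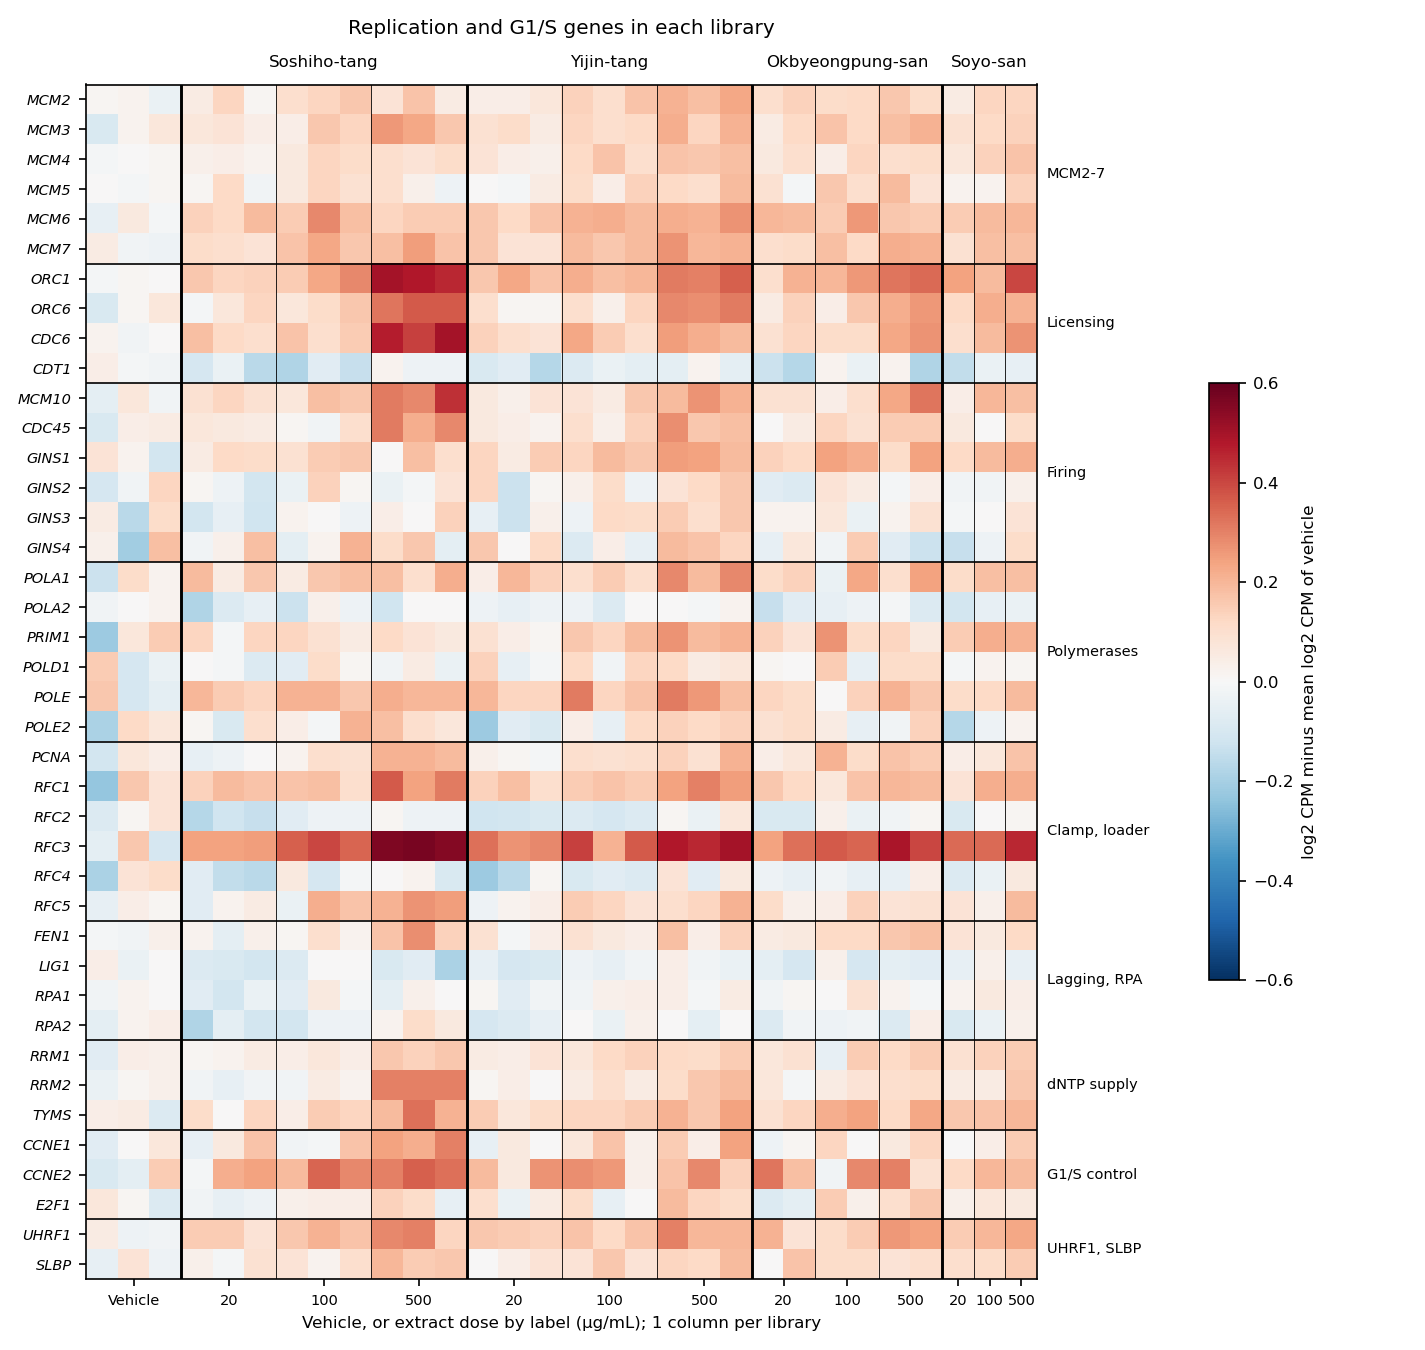
Log2 CPM of each of the 40 genes (rows, by role) in each of the 30 libraries (columns, vehicle and then 20, 100 and 500 µg/mL of each formula), minus the mean of the 3 vehicle libraries. Licensing genes other than CDT1 and the loader subunit RFC3 are darkest at 500 µg/mL of Soshiho-tang, while CDT1, POLA2, LIG1 and RPA1 stay near or below the vehicle level.

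A fit of only the 6 libraries compared called 20 genes with Soshiho-tang and 9 with Yijin-tang, where 27.8% and 6.82% of all genes were called. With Soshiho-tang 20 of the 25 calls held under every alternative tried, and with Yijin-tang 9 of 26 did: MCM2, MCM6, MCM7, ORC1, ORC6, CDC6, MCM10, RFC3 and UHRF1.

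The helicase is the ring of MCM2 to MCM7 that unwinds DNA. With Soshiho-tang at 500 µg/mL 5 of its 6 genes rose against vehicle, and with Yijin-tang all 6 did. MCM7 had 420, 441 and 417 CPM with Soshiho-tang at 500 µg/mL, against 384, 366 and 365 CPM in vehicle. With Yijin-tang at that dose MCM7 had 447, 426 and 429 CPM. All extract libraries lay above all vehicle libraries, and the log2 fold changes were 0.21 ± 0.036 (SE; adjusted p = 4.6e-05) with Soshiho-tang and 0.24 ± 0.036 (adjusted p = 3.3e-05) with Yijin-tang. MCM2 had 234, 250 and 230 CPM with Soshiho-tang and 256, 250 and 260 CPM with Yijin-tang, against 223, 225 and 216 CPM in vehicle. Its log2 fold changes were 0.11 ± 0.039 (adjusted p = 0.021) with Soshiho-tang and 0.22 ± 0.039 (adjusted p = 0.00017) with Yijin-tang, and no library overlapped with vehicle. MCM5 had 114, 109 and 105 CPM with Soshiho-tang, against 107, 106 and 107 CPM in vehicle. Those libraries overlapped and the difference of 0.04 did not pass the test (adjusted p = 0.44), whereas MCM5 rose by 0.15 ± 0.042 with Yijin-tang (adjusted p = 0.012).

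MCM3, MCM4 and MCM6 rose by log2 fold changes of 0.23, 0.11 and 0.15 with Soshiho-tang and of 0.20, 0.18 and 0.25 with Yijin-tang. MCM6 (ENSG00000076003, chr2:135839626-135876426, minus strand), chosen for description after its values were seen, averaged 115 CPM in vehicle, 128, 133 and 127 CPM at 20, 100 and 500 µg/mL of Soshiho-tang and 128, 133 and 136 CPM at those doses of Yijin-tang. It was called at all 3 doses of both formulas, but at 20 µg/mL (0.16 ± 0.04 for each formula) the call was lost without library 3 of that dose (0.12 with Soshiho-tang and 0.14 with Yijin-tang), in a fit of only the groups compared (0.15 each) and, for Soshiho-tang, with no filter on low counts (0.14). The Soshiho-tang call of MCM2 was lost without Soshiho-tang library 1 (0.11), without Soshiho-tang library 2 (0.06) and without vehicle library 3 (0.08), that of MCM4 without Soshiho-tang library 1 (0.09) or 3 (0.08), and the Yijin-tang call of MCM5 without Yijin-tang library 3 (0.11). In GENCODE other genes overlap over 20% of the exon length of 6 of the 40 genes, where reads are less certain: MCM2 (22.7%), GINS4 (21.2%), POLA2 (35.1%), RRM2 (20.2%), TYMS (39.1%) and CCNE2 (37.0%). GENCODE also names pseudogenes of 7 of the 40: PCNA, RPA2 and RRM2 (3 each), TYMS (2), and FEN1, RFC3 and RFC5 (1 each). The part of these pseudogenes in the counts was not tested.

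The 4 licensing genes had the highest median log2 fold change of the 9 role groups with Soshiho-tang at 500 µg/mL, 0.42. CDC6 (ENSG00000094804, chr17:40287633-40304657, plus strand, GRCh38) is the ATPase that recruits the helicase to the origin complex. It had 114, 109 and 116 CPM with Soshiho-tang at 500 µg/mL, against 83.4, 80.8 and 82.2 CPM in vehicle. With Yijin-tang at that dose it had 97.5, 95.9 and 93.9 CPM, and with Okbyeongpung-san 96.5 and 99.4 CPM. Every library at 500 µg/mL lay above every vehicle library, and the Soshiho-tang libraries lay above the rest. The log2 fold change was 0.47 ± 0.041 (adjusted p = 4.7e-10) with Soshiho-tang and 0.23 ± 0.041 (adjusted p = 0.00016) with Yijin-tang. ORC1 (ENSG00000085840, chr1:52372829-52404459, minus strand), the largest subunit of the origin recognition complex and described after its values were seen, had 47, 46.5 and 45.5 CPM with Soshiho-tang and 41.3, 40.9 and 42.8 CPM with Yijin-tang, against 33.1, 33.5 and 33.2 CPM in vehicle. The groups did not overlap, and the changes were 0.49 ± 0.045 (adjusted p = 1.6e-09) and 0.34 ± 0.045 (adjusted p = 6.1e-06). ORC6, another origin complex subunit, rose by 0.36 ± 0.05 with Soshiho-tang and by 0.31 ± 0.05 with Yijin-tang.

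CDT1, the partner of CDC6 in loading the helicase, was called in no comparison. It had 57.3, 55.2 and 55.2 CPM with Soshiho-tang at 500 µg/mL and 54.1, 57.2 and 54.2 CPM with Yijin-tang, against 58, 55.9 and 55.6 CPM in vehicle. The groups overlapped, and the log2 differences were -0.01 ± 0.045 (adjusted p = 0.93) and -0.02 ± 0.044 (adjusted p = 0.77). At 20 µg/mL all 3 libraries of each formula lay below all vehicle libraries, but the differences of -0.09 and -0.10 did not pass the test (adjusted p = 0.18 and 0.13).

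Among firing factors, MCM10 and CDC45 rose with both formulas and the GINS genes mostly did not pass the test. MCM10, which activates the loaded helicase, had 47.6, 47 and 51.9 CPM with Soshiho-tang at 500 µg/mL, against 36.8, 40.4 and 37.9 CPM in vehicle, with no overlap (0.36 ± 0.051, adjusted p = 2.3e-06). With Yijin-tang it had 43.8, 46.3 and 44.4 CPM (0.24 ± 0.051, adjusted p = 0.0012). CDC45, a subunit of the active helicase, rose by 0.28 and 0.22 on the log2 scale with Soshiho-tang and Yijin-tang. GINS1 rose with Yijin-tang (0.24 ± 0.052, adjusted p = 0.0016) and gave 0.10 with Soshiho-tang (adjusted p = 0.12). The difference between the formulas for GINS1, -0.13, did not pass the test (adjusted p = 0.1). GINS2 had 36.9, 37.7 and 40.1 CPM with Soshiho-tang, against 35.2, 37.3 and 41.4 CPM in vehicle, and these overlapped (0.02 ± 0.066, adjusted p = 0.83). GINS2, GINS3 and GINS4 were called in no comparison, with differences of 0.14, 0.15 and 0.17 at 500 µg/mL of Yijin-tang and SEs of 0.065, 0.064 and 0.089. GINS4, GINS3, CCNE2 and POLE2 had the lowest levels per length in vehicle (1.82, 3.75, 2.83 and 4.14 CPM per kb of exon), and PCNA the highest (133 CPM per kb).

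Of the 6 polymerase genes, 2 rose with Soshiho-tang at 500 µg/mL and 3 with Yijin-tang. POLE, the catalytic subunit of the leading strand polymerase, had 165, 163 and 163 CPM with Soshiho-tang and 176, 170 and 161 CPM with Yijin-tang, against 158, 133 and 136 CPM in vehicle. Vehicle library 1 lay well above the other vehicle libraries and below all of these, and the log2 fold changes were 0.21 ± 0.052 (adjusted p = 0.0017) and 0.26 ± 0.052 (adjusted p = 0.00064). POLA1, the catalytic subunit of the polymerase that extends primers, rose by 0.18 ± 0.06 with Soshiho-tang (adjusted p = 0.021) and by 0.27 ± 0.059 with Yijin-tang (adjusted p = 0.0014). Its Soshiho-tang call was lost without Soshiho-tang library 1 (0.15) or 3 (0.14) and without vehicle library 1 (0.09). PRIM1, the primase subunit that makes the RNA primer, rose with Yijin-tang (0.24 ± 0.069, adjusted p = 0.011), a call lost without vehicle library 1 (0.12) and without Yijin-tang library 1 (0.20). POLD1, the catalytic subunit of the lagging strand polymerase, had 83.2, 87.4 and 82.3 CPM with Soshiho-tang, against 93.6, 78.7 and 82.1 CPM in vehicle, a difference of 0.00 ± 0.058 (adjusted p = 1). POLA2, POLD1 and POLE2 were called in no comparison.

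Of PCNA and its loader, 4 of 6 genes rose with each formula at 500 µg/mL, and the loader subunits did not move alike. RFC3 (ENSG00000133119, chr13:33818049-33966558, plus strand) had 97.3, 97.8 and 96.6 CPM with Soshiho-tang, 92, 90 and 93.3 CPM with Yijin-tang and 92.8 and 87.4 CPM with Okbyeongpung-san, against 63.2, 73.8 and 61.8 CPM in vehicle. All extract libraries at this dose lay above vehicle, and the log2 fold change was 0.56 ± 0.053 (adjusted p = 2.3e-09) with Soshiho-tang and 0.49 ± 0.053 (adjusted p = 5.3e-07) with Yijin-tang. RFC4, another loader subunit, had 25.5, 25.8 and 23.9 CPM with Soshiho-tang, against 22.3, 26.9 and 27.5 CPM in vehicle, which overlapped (-0.01 ± 0.071, adjusted p = 0.93). RFC1, the large subunit, and RFC5 rose by 0.31 and 0.26 with Soshiho-tang and by 0.27 and 0.16 with Yijin-tang. RFC2 gave -0.01 and 0.03 and was not called. PCNA had 226, 227 and 224 CPM with Soshiho-tang and 215, 208 and 226 CPM with Yijin-tang, against 181, 206 and 201 CPM in vehicle. Neither group overlapped with vehicle (0.21 ± 0.042, adjusted p = 0.00017, and 0.16 ± 0.041, adjusted p = 0.0073). With Yijin-tang the PCNA call was lost without vehicle library 1 (0.09) or Yijin-tang library 3 (0.11), and the RFC5 call without vehicle library 1 (0.12) or 3 (0.15) or Yijin-tang library 1 (0.17), 2 (0.15) or 3 (0.11). Across these 6 genes vehicle library 1 averaged -0.12 on the log2 scale from the vehicle mean, the lowest of its 9 role groups.

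The 4 genes of lagging strand maturation and single-strand binding had the lowest median of the role groups with Soshiho-tang, 0.04. FEN1, the nuclease that trims Okazaki fragment flaps, had 175, 187 and 170 CPM with Soshiho-tang at 500 µg/mL, against 154, 153 and 158 CPM in vehicle, with no overlap (0.21 ± 0.043, adjusted p = 0.00032). With Yijin-tang it rose by 0.14 ± 0.043 (adjusted p = 0.024), a call lost when vehicle library 1 (0.11), 2 (0.11) or 3 (0.13) or Yijin-tang library 1 (0.09) or 3 (0.11) was left out. LIG1, the ligase that joins the fragments and described after its values were seen, had 104, 105 and 97.3 CPM with Soshiho-tang, against 114, 108 and 110 CPM in vehicle. The libraries did not overlap and LIG1 fell by 0.11 on the log2 scale (-0.11 ± 0.039, adjusted p = 0.03), though not without Soshiho-tang library 3 (-0.09). With Yijin-tang it had 114, 109 and 107 CPM and did not differ in the test (0.01 ± 0.039, adjusted p = 0.93). RPA1, the large subunit of the single-strand binding protein, had 117, 125 and 123 CPM with Soshiho-tang, against 121, 124 and 122 CPM in vehicle (0.00 ± 0.04, adjusted p = 1). RPA2 gave 0.07 with Soshiho-tang (adjusted p = 0.19) and 0.00 with Yijin-tang (adjusted p = 0.97).

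All 3 genes of deoxynucleotide supply rose with both formulas. RRM2 (ENSG00000171848, chr2:10120698-10131419, plus strand), the regulated subunit of ribonucleotide reductase, had 356, 356 and 356 CPM with Soshiho-tang at 500 µg/mL and 312, 324 and 331 CPM with Yijin-tang, against 282, 291 and 296 CPM in vehicle. None of these overlapped, and the changes were 0.31 ± 0.034 (adjusted p = 4.5e-08) and 0.17 ± 0.034 (adjusted p = 0.0008). RRM1, the constitutive subunit, had 274, 271 and 275 CPM with Soshiho-tang and 266, 264 and 273 CPM with Yijin-tang, against 234, 253 and 250 CPM in vehicle (0.16 ± 0.035 and 0.14 ± 0.035). The Yijin-tang call of RRM1 was lost without Yijin-tang library 3 (0.11). TYMS, thymidylate synthase, had 141, 155 and 142 CPM with Soshiho-tang and 142, 137 and 145 CPM with Yijin-tang, against 126, 127 and 116 CPM in vehicle (0.25 ± 0.046 and 0.21 ± 0.046). ENOSF1 lies on the other strand over part of the TYMS exons, and whether counting used strand is not stated, so reads of the pair may be mixed.

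Of the G1/S regulators, CCNE1 and CCNE2, the cyclins E that activate CDK2, rose with Soshiho-tang, and E2F1, an activating transcription factor, rose with Yijin-tang. CCNE1 had 24.6, 24.2 and 25.5 CPM with Soshiho-tang at 500 µg/mL and 23, 21.4 and 24.5 CPM with Yijin-tang, against 19.7, 20.7 and 21.9 CPM in vehicle. The Soshiho-tang libraries lay above vehicle (0.26 ± 0.066, adjusted p = 0.0021), whereas Yijin-tang overlapped and gave 0.17 ± 0.066 (adjusted p = 0.073). CCNE2 had 15.4, 16 and 15.6 CPM with Soshiho-tang and 14, 15.2 and 13.7 CPM with Yijin-tang, against 11.7, 11.9 and 13.8 CPM in vehicle (0.35 ± 0.082, adjusted p = 0.0013, and 0.21 ± 0.082, adjusted p = 0.069). E2F1 had 70.8, 69.2 and 61.7 CPM with Soshiho-tang and 73.2, 70.1 and 69 CPM with Yijin-tang, against 67.4, 64.5 and 60.5 CPM in vehicle. Only the Yijin-tang change passed the test (0.16 ± 0.053, adjusted p = 0.035, against 0.08 ± 0.053, adjusted p = 0.26), and it was lost when vehicle library 2 (0.14) or 3 (0.10) or any of Yijin-tang libraries 1, 2 and 3 (0.11, 0.14 and 0.15) was left out. Set directly against each other at 500 µg/mL, Soshiho-tang and Yijin-tang did not differ in the test for CCNE1 (0.10, adjusted p = 0.4), CCNE2 (0.14, adjusted p = 0.33) or E2F1 (-0.08, adjusted p = 0.4).

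UHRF1, which brings the maintenance methyltransferase to new DNA, had 134, 134 and 120 CPM with Soshiho-tang at 500 µg/mL and 135, 125 and 126 CPM with Yijin-tang, against 113, 107 and 108 CPM in vehicle. It rose by 0.25 ± 0.043 with each formula (adjusted p = 3e-05 and 0.00015). SLBP, which binds the stem-loop of histone mRNAs, had 109, 105 and 106 CPM with Soshiho-tang and 104, 103 and 108 CPM with Yijin-tang, against 91.5, 100 and 92.7 CPM in vehicle. Every one of these libraries lay above vehicle (0.18 ± 0.043, adjusted p = 0.0015, and 0.16 ± 0.043, adjusted p = 0.0076), and the Yijin-tang call was lost without vehicle library 3 (0.13) or Yijin-tang library 3 (0.12).

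**Figure D2:**
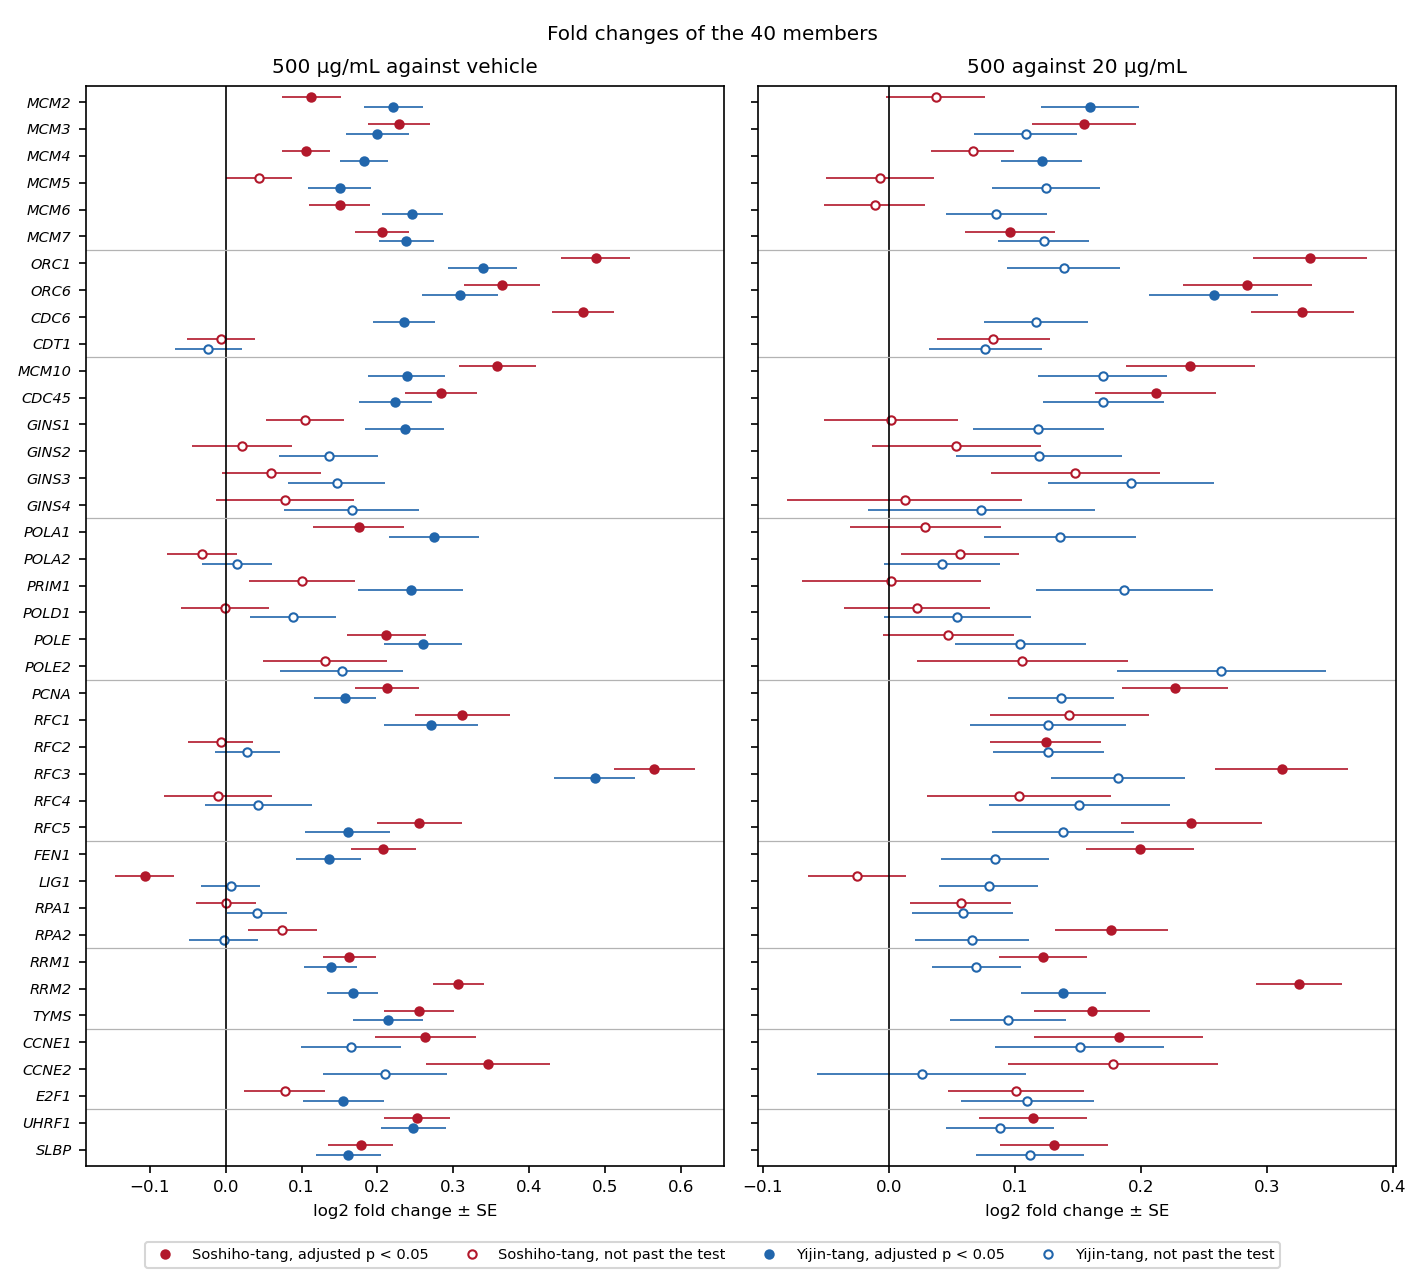
Log2 fold changes with SE of the 40 genes, comparing 500 µg/mL with vehicle (left) and, within a formula, with 20 µg/mL (right); filled points passed the test at an adjusted p under 0.05. RFC3 has the largest changes against vehicle (0.56 with Soshiho-tang and 0.49 with Yijin-tang) and LIG1 is the only filled point below 0.

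At 100 µg/mL 12 of the 40 genes rose against vehicle with Soshiho-tang and none fell, against 11.1% of all genes called higher, 7.05% lower and 18.2% in either direction. With Yijin-tang 13 rose and none fell, against 11.1%, 7.37% and 18.4%. At 20 µg/mL 7 rose with each formula, against 10.6% of all genes called higher with Soshiho-tang (6.34% lower, 16.9% in either direction) and 10.3% with Yijin-tang (6.66% lower, 17% in either direction), and RFC2 fell with Soshiho-tang (-0.13 ± 0.044, adjusted p = 0.037). The 7 were MCM6, MCM7, ORC1, CDC6, POLE, RFC3 and UHRF1 with both formulas, which share their vehicle libraries. Leaving aside the fit of only the groups compared, which called 0 at this dose, RFC3 with Soshiho-tang and ORC1 and RFC3 with Yijin-tang held under every other alternative. The share called in either direction at 20 µg/mL of Yijin-tang, 17.5%, was close to the 17% of all genes. All 7 of those calls were higher, where 10.3% of all genes were called higher. These counts rest on single libraries: with Soshiho-tang at 100 µg/mL the count was 7, 7 and 6 without vehicle library 3 or Soshiho-tang library 2 or 3, and with Yijin-tang at 100 µg/mL 7 and 8 without Yijin-tang library 1 or 3. At 20 µg/mL of Soshiho-tang the 8 calls became 2 without vehicle library 3 and 2, 3 and 1 without Soshiho-tang library 1, 2 or 3, and the 7 calls with Yijin-tang became 3 without vehicle library 3 or any of its own libraries. Averaged over the 40 genes, the log2 difference from the vehicle mean was 0.02, 0.03 and 0.04 in the libraries with 20 µg/mL of Soshiho-tang, 0.05, 0.11 and 0.10 with 100 µg/mL and 0.17, 0.18 and 0.15 with 500 µg/mL. With Yijin-tang it was 0.06, 0.03 and 0.05 at 20 µg/mL, 0.10, 0.08 and 0.09 at 100 µg/mL and 0.17, 0.14 and 0.17 at 500 µg/mL. Without vehicle library 1 the median of the 40 genes at 20 µg/mL was 0.02 with Soshiho-tang, against 0.06 with it, and 0.02 with Yijin-tang, against 0.05, and at 100 µg/mL of Yijin-tang 0.06, against 0.11. The doses did not overlap within either formula, and the vehicle libraries themselves lay at -0.04, 0.01 and 0.02.

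**Figure D3:**
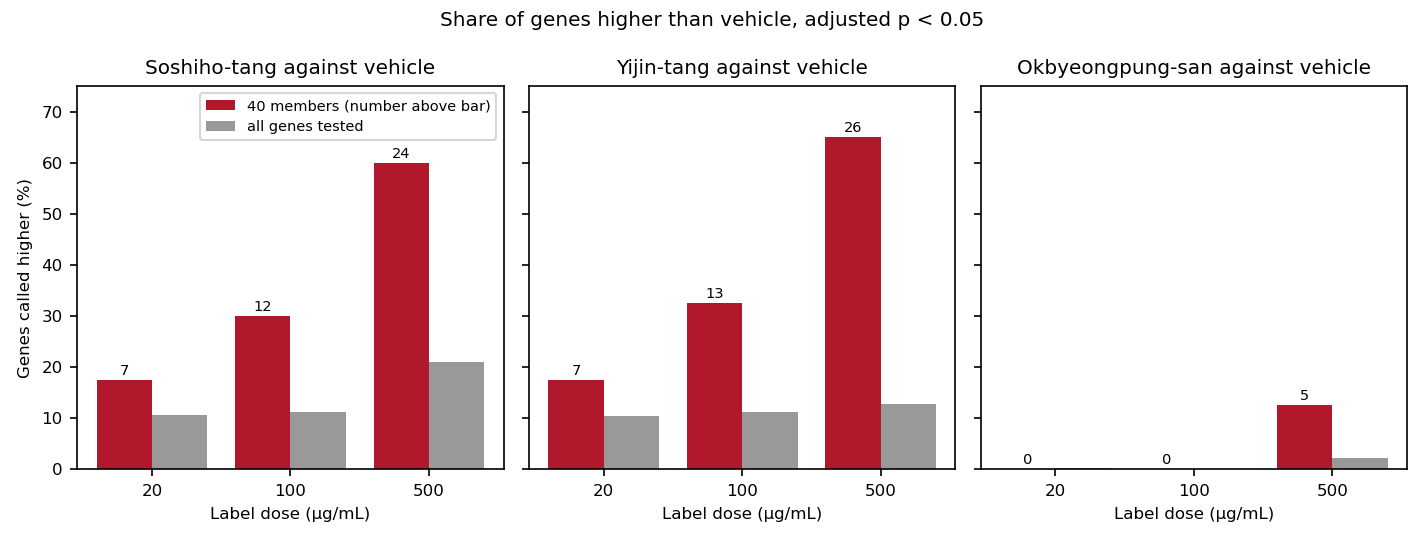
Percentage of the 40 genes (red, with their number above the bar) and of all genes tested (grey) called higher than vehicle at an adjusted p under 0.05, at 20, 100 and 500 µg/mL of 3 formulas. At 500 µg/mL 24 and 26 genes were called with Soshiho-tang and Yijin-tang and 5 with Okbyeongpung-san.

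Next, 500 was compared with 20 µg/mL of the same formula, a contrast without vehicle libraries in a fit that included them. With Soshiho-tang 19 of the 40 genes rose and none fell, against 13.3% of all genes called higher and 26.8% in either direction. The median was 0.12, against -0.008 over all genes, and 24 genes had all 3 libraries at 500 µg/mL above all 3 at 20 µg/mL, as 21.1% of all genes did. RRM2 rose most by its test, with 356, 356 and 356 CPM at 500 µg/mL, against 285, 281 and 285 CPM at 20 µg/mL (0.33 ± 0.034, adjusted p = 2.5e-08). CDC6 had 114, 109 and 116 CPM at 500 µg/mL, against 92.9, 89.2 and 88 CPM at 20 µg/mL (0.33 ± 0.041, adjusted p = 5e-07). ORC1 had 47, 46.5 and 45.5 CPM, against 37.2, 36.3 and 36.6 CPM (0.33 ± 0.045, adjusted p = 1.9e-06). RFC3, ORC6, MCM10, RFC5, PCNA, CDC45 and FEN1 rose by 0.20 to 0.31, none of them with overlapping libraries. The others called were MCM3, TYMS, CCNE1, RPA2, SLBP, RRM1, RFC2, UHRF1 and MCM7, at 0.10 to 0.18. RPA2 and RFC2 were not higher than vehicle at 500 µg/mL. In contrast MCM2, MCM4, MCM6, POLA1, POLE, RFC1 and CCNE2 were higher than vehicle but were not called against 20 µg/mL, and of these MCM6 gave -0.01 ± 0.04 (adjusted p = 0.88). Of the 19 calls, 13 held under every alternative, and those of MCM7 and RFC2 were lost whichever of the 6 libraries was left out (0.07 to 0.11 and 0.11 to 0.14). UHRF1 lost its call without any one except Soshiho-tang library 3 at 500 µg/mL (0.09 to 0.12), CCNE1 without any one except library 3 at 20 µg/mL (0.13 to 0.20), SLBP without library 1 at 500 µg/mL or library 1 or 2 at 20 µg/mL (0.11, 0.12 and 0.11), and TYMS without library 2 of either dose (0.12 each).

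With Yijin-tang 4 genes rose at 500 against 20 µg/mL and none fell, where 0.724% of all genes were called higher, 1.13% lower and 1.86% in either direction. ORC6 had 42.4, 42 and 43 CPM at 500 µg/mL, against 37.1, 34.9 and 34.8 CPM at 20 µg/mL (0.26 ± 0.051, adjusted p = 0.0041). MCM2 (0.16 ± 0.039, adjusted p = 0.024), RRM2 (0.14 ± 0.034, adjusted p = 0.027) and MCM4 (0.12 ± 0.032, adjusted p = 0.049) also rose. All 40 log2 fold changes were above 0, with a median of 0.12 against 0.001 over all genes, and 29 genes had no overlap with the higher dose above, against 11% of all genes. The count fell to 2 without Yijin-tang library 1 at 500 µg/mL and to 1, ORC6, without any other of the 6 libraries, while a fit of only these libraries called 14.

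**Figure D4:**
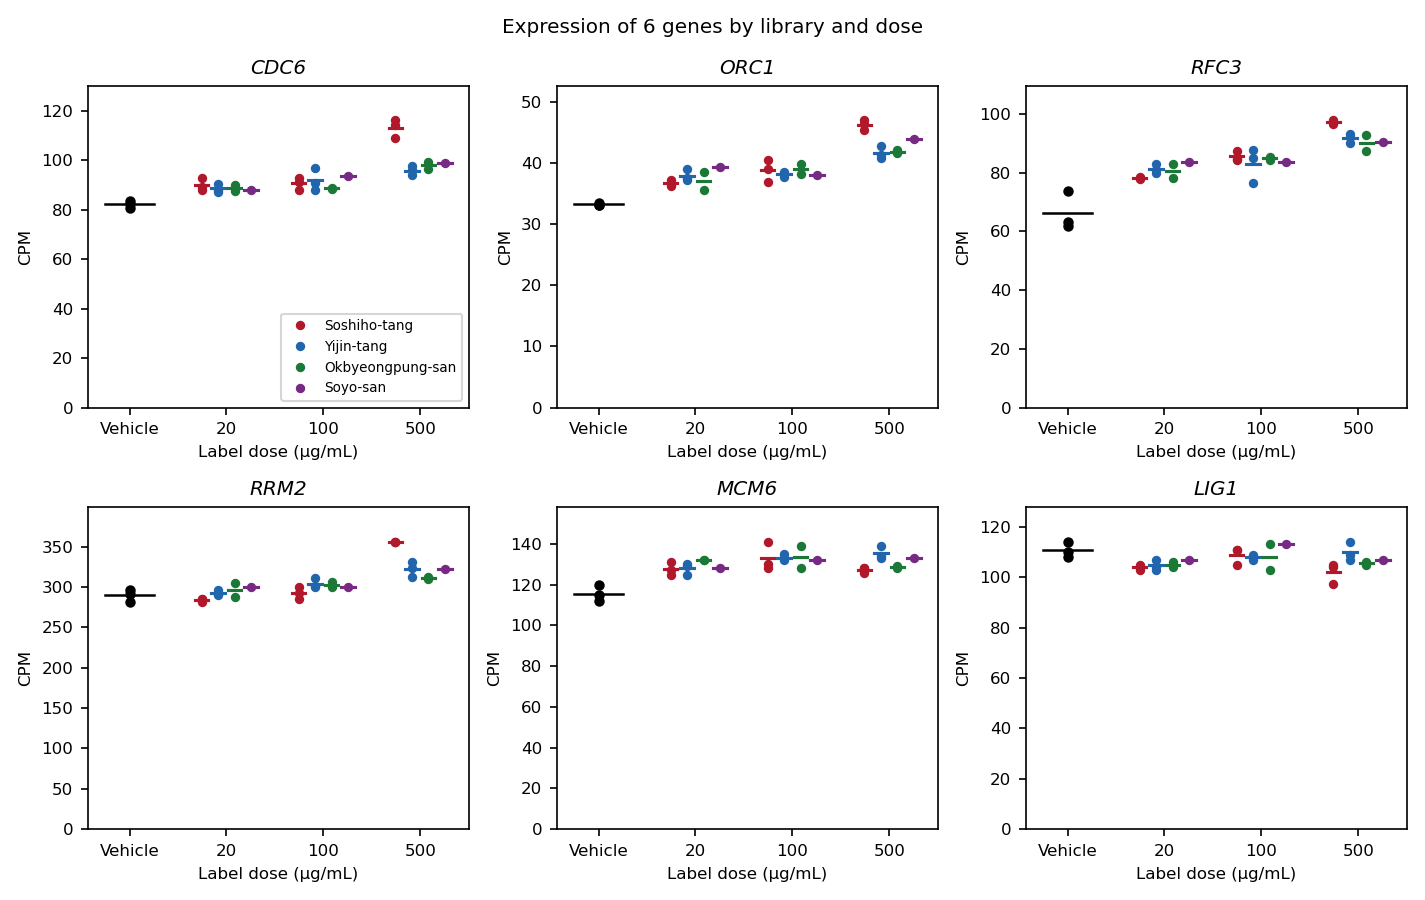
CPM of 6 genes in every library (points) with group means (bars), in vehicle and at 20, 100 and 500 µg/mL of 4 formulas. CDC6, ORC1, RFC3 and RRM2 are highest with Soshiho-tang at 500 µg/mL (CDC6 109 to 116 CPM, against 80.8 to 83.4 CPM in vehicle), the MCM6 means at 20 µg/mL of Soshiho-tang and of Yijin-tang (128 CPM each) are above that of vehicle (115 CPM), and LIG1 is lowest in a library with 500 µg/mL of Soshiho-tang (97.3 CPM).

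Soshiho-tang was then set directly against Yijin-tang at 500 µg/mL. CDC6 was higher with Soshiho-tang by 0.24 ± 0.041 (adjusted p = 0.00012), ORC1 by 0.15 ± 0.045 (adjusted p = 0.025) and RRM2 by 0.14 ± 0.034 (adjusted p = 0.0054), and none of the 40 was lower, where 6.54% of all genes were called higher, 6.38% lower and 12.9% in either direction. The median was -0.01. In CPM 8 genes lay wholly above Yijin-tang and 9 wholly below, among them MCM2, MCM4, MCM5 and MCM6, against 17% and 15.4% of all genes. The ORC1 call was lost without library 1 or 2 of either formula (0.14 to 0.15). The rise between 20 and 500 µg/mL was itself larger with Soshiho-tang for CDC6, by 0.21 ± 0.058 (adjusted p = 0.03), and for RRM2, by 0.19 ± 0.048 (adjusted p = 0.02), 2 of the 40 genes, against 2.15% of all genes called in that direction, 2.42% in the other and 4.58% in either. These calls were not stable: that of CDC6 was lost without Soshiho-tang library 1 or 3 at 500 µg/mL (0.21 and 0.20), Soshiho-tang library 2 or 3 at 20 µg/mL (0.21 and 0.20), Yijin-tang library 1 at 20 µg/mL (0.20) and Yijin-tang library 2 or 3 at 500 µg/mL (0.22 and 0.20). The call of RRM2 was lost without Yijin-tang library 1 at 500 µg/mL (0.17) or library 2 at 20 µg/mL (0.18).

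With Okbyeongpung-san at 500 µg/mL 5 genes rose against vehicle and none fell, where 2.19% of 15762 genes were called higher and 4.38% in either direction. They were RFC3 (0.45 ± 0.08, adjusted p = 0.0099), ORC1 (0.34 ± 0.068, adjusted p = 0.02), MCM10 (0.27 ± 0.071, adjusted p = 0.047), CDC6 (0.26 ± 0.059, adjusted p = 0.032) and UHRF1 (0.25 ± 0.064, adjusted p = 0.042). ORC1 had 41.7 and 42.1 CPM, MCM10 44.9 and 47.8 CPM and UHRF1 131 and 129 CPM with Okbyeongpung-san, each pair above all 3 vehicle libraries. The median over the 40 genes was 0.14, against -0.002 over all genes. None of the 40 was called without replicate 3, which sets 1 library of batch E against vehicle of the same batch, or without replicate 2, which sets 1 library of batch D against vehicle of batch E, with the lone library taken to vary like the other groups. The log2 fold changes of the 5 genes were 0.24 to 0.50 within batch E and 0.24 to 0.40 between batches, and without vehicle library 3 the count was 1. At 100 and 20 µg/mL edgeR called 0 of the 40 genes, against 0.108% (0.0634% lower) and 0.273% of all genes, with 9 and 5 genes at an unadjusted p under 0.05 and 1 called by DESeq2 at each dose. Between 500 and 20 µg/mL edgeR and DESeq2 called 0, against 0.558% of all genes by edgeR, with 4 genes at an unadjusted p under 0.05.

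Soyo-san had 1 library per dose, so its differences have no replicate check. The 40 genes had a median log2 difference from the vehicle mean of 0.07, 0.09 and 0.15 at 20, 100 and 500 µg/mL, and 28, 31 and 37 of them lay above it, against 50.4%, 49.1% and 49.1% of all genes. RFC3 had the largest difference at each dose (0.34, 0.34 and 0.45), with 83.7, 83.7 and 90.5 CPM. CDC6 had 87.8, 93.6 and 98.7 CPM and ORC1 39.3, 38 and 43.9 CPM, while CDT1 was lowest at 500 µg/mL with -0.05. Against the Okbyeongpung-san library of the same batch and dose the medians were -0.01, 0 and 0.02.

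Across the 30 libraries, the 780 pairs among the 40 genes had a median Pearson correlation of log2 CPM of 0.381, between -0.399 and 0.899, a description over libraries that share groups, doses and scaling. After group means were removed, with Soyo-san left out, the median over 27 libraries was 0.085. LIG1 and CDT1 had the lowest mean correlation with the other genes (-0.01 and 0.11), and MCM3, PCNA and ORC6 the highest (0.55, 0.54 and 0.54).

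Of 39 other replication genes, a list of origin complex subunits, fork proteins and chromatin assembly factors, 20 rose against vehicle with Soshiho-tang at 500 µg/mL and none fell, against 21% and 18.3% of all genes, with a median of 0.15. With Yijin-tang 16 rose and 1 fell, against 12.7% and 8.39%. ATAD5, which unloads PCNA, rose by 0.51 ± 0.059 with both, TIPIN, of the fork protection complex, by 0.47 and 0.26, and DNA2, a nuclease-helicase of flap processing, by 0.45 and 0.34. MCM8, of a helicase used in repair, and MCMBP, which binds MCM subunits, rose by 0.33 and 0.32 with Soshiho-tang. Against 20 µg/mL of the same formula 14 of the 39 rose with Soshiho-tang, where 13.3% of all genes did, and none was called with Yijin-tang, where 0 of 39 stands beside 1.86% of all genes.

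Of 27 other G1/S regulators tested (CCND2 did not pass the filter), 12 rose and 5 fell with Soshiho-tang at 500 µg/mL against vehicle, where 21% of all genes rose and 18.3% fell, and 8 rose and 2 fell with Yijin-tang, where 12.7% rose and 8.39% fell. CDK6, a cyclin D kinase, had 283, 267 and 287 CPM with Soshiho-tang, 210, 210 and 208 CPM with Yijin-tang and 239 and 238 CPM with Okbyeongpung-san, against 153, 158 and 159 CPM in vehicle. No group overlapped with vehicle, and the log2 fold changes were 0.84 ± 0.041 (adjusted p = 6.3e-15), 0.43 ± 0.041 (adjusted p = 6.3e-08) and 0.61 ± 0.084 (adjusted p = 0.0022). RBL1, a retinoblastoma relative that represses E2F targets, rose by 0.61 and 0.60, and CDC25A, the phosphatase that activates CDK2, by 0.38 and 0.23. Among genes that fell were TFDP2, a partner of E2F factors (-0.47 ± 0.065), and the CDK inhibitor CDKN2C (-0.59 ± 0.095), each with Soshiho-tang, and CCND1, cyclin D1, by -0.17 with Soshiho-tang and -0.12 with Yijin-tang. MYC fell with Soshiho-tang, Yijin-tang and Okbyeongpung-san (-0.34, -0.45 and -0.37) against their shared vehicle, but was not called at 500 against 20 µg/mL (0.15, adjusted p = 0.14, with Soshiho-tang and 0.04, adjusted p = 0.9, with Yijin-tang). The CDK inhibitor CDKN1A had 13.3, 13.7 and 15 CPM with Soshiho-tang and 10.1, 9.89 and 10.4 CPM with Yijin-tang at 500 µg/mL, against 12.6, 9.69 and 10.4 CPM in vehicle. Vehicle library 1 lay closest to the Soshiho-tang libraries, and the difference from vehicle was 0.35 ± 0.081 (adjusted p = 0.00093) with Soshiho-tang and -0.10 ± 0.084 (adjusted p = 0.42) with Yijin-tang. The formulas did not overlap, and the direct difference was 0.46 ± 0.084 (adjusted p = 0.0003).

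Of 12 other genes of nucleotide supply, 4 rose and 2 fell with Soshiho-tang at 500 µg/mL against vehicle, where 21% and 18.3% of all genes did, and 3 rose with Yijin-tang, where 12.7% did. NME1, a nucleoside diphosphate kinase, rose by 0.24, CTPS1, CTP synthase, by 0.23 and DCK, deoxycytidine kinase, by 0.28 with Soshiho-tang, while SHMT1, a serine hydroxymethyltransferase of folate metabolism, was among those that fell (-0.20). Of 24 mitosis genes 8 rose and 1, AURKB (-0.13), fell with Soshiho-tang, with a median of 0.09, and 2 rose and 2 fell with Yijin-tang, with a median of 0.02. Of all genes 21% rose and 18.3% fell with Soshiho-tang, and 12.7% rose and 8.39% fell with Yijin-tang. The share of mitosis genes called in either direction was 37.5% with Soshiho-tang, against 39.2% of all genes, and 16.7% with Yijin-tang, against 21%. The mitotic kinase CDK1 rose by 0.24 and cyclin B1 (CCNB1) by 0.16 with Soshiho-tang, and MKI67, a marker of cycling cells, had 1140, 1050 and 1130 CPM with Soshiho-tang, against 941, 1040 and 1140 CPM in vehicle, which overlapped (0.10 ± 0.052, adjusted p = 0.15). Against 20 µg/mL of Soshiho-tang 10 mitosis genes rose and none fell, where 13.3% of all genes rose and 13.5% fell, with CCNB1 at 0.27, CDC20 at 0.26 and PLK1 at 0.23.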

How the data were processed

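The authors deposited expected counts from RSEM for each Ensembl gene in the 30 libraries (paired 100 bp reads, RIN above 7 by the labels). The submitters' processing notes name STAR 2.7.3a, RSEM 1.3.3, Trim Galore 0.6.5, FastQC 0.11.9 and the build GRCh38; the annotation release and the strand setting of counting are not given in the sources used here. Between 9.52% and 11.5% of values per library were not whole, and all were rounded to whole numbers. A further 30 unnamed empty columns were not used. Of the identifiers, 56558 had a symbol, and exon lengths and overlaps came from a GENCODE annotation of GRCh38.

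Genes were filtered with filterByExpr, scaled by TMM and tested with edgeR 4.0.16 (R 4.3.3, limma 3.58.1; robust quasi-likelihood, Benjamini-Hochberg over all genes tested, adjusted p under 0.05). Vehicle, Soshiho-tang and Yijin-tang formed one fit of 21 libraries (15882 genes, biological coefficient of variation 4.71%), and vehicle and Okbyeongpung-san another of 9 (15762 genes, 7.03%). Soyo-san was not tested. CPM use the TMM-scaled totals, and before scaling the totals were 18.5 to 36.2 M counts per library. Replicate pairs differed by more than sampling noise (chi-square divided by its degrees of freedom 2.3 to 18.6 over 24 pairs).

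Alternatives were no filter, RLE scaling, mitochondrial genes left out, DESeq2 1.42.0, only the groups compared, a replicate block, another prior count for Soyo-san and leaving out each library. The tests were first run on simulated data. Per-library values are given for the genes with the smallest and the largest adjusted p of each role with Soshiho-tang at 500 µg/mL, and for CDC6, MCM2, PCNA, CCNE1, CCNE2, E2F1, RRM2, TYMS and SLBP. From each other list, up to 3 genes with the smallest adjusted p per direction were named, with CDKN1A, MYC, CCND1 and MKI67; 1 gene that this rule names is not reported here. The genes and lists were chosen with earlier results of these data known.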

Additional observations from a re-analysis of the deposited data

Results flagged for a closer look

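The change between 20 and 500 µg/mL was compared between Soshiho-tang and Yijin-tang by the interaction term of edgeR's quasi-likelihood fit. It differed in 6 genes of the 40 and of the lists (39 other replication genes, 27 G1/S regulators, 12 of nucleotide supply, 24 of mitosis). The share called was 5% of the 40, 0% of the other replication genes and 11.1% of the G1/S regulators. It was 8.33% of the nucleotide supply genes and 0% of the mitosis genes. Of all genes 4.58% were called, and the 6 calls together do not exceed that share. The epithelial marker VIL1 was also called (-0.37, adjusted p = 0.00024). The log2 difference of the changes, Soshiho-tang minus Yijin-tang, was 0.21 for CDC6 (adjusted p = 0.03) and 0.19 for RRM2 (adjusted p = 0.02). Neither call held under every alternative: with every gene kept whatever its count, 0 of the 40 genes were called. Among other genes of the cycle and of nucleotide supply it was 0.35 for CDK6 (adjusted p = 0.00022), -0.58 for the CDK inhibitor CDKN2C (adjusted p = 0.0096), -0.20 for SKP2, which marks CDK inhibitors for degradation (adjusted p = 0.034), and 0.20 for NME1 (adjusted p = 0.035). CDKN2C had 5.82, 5.74 and 5.86 CPM with Soshiho-tang at 500 µg/mL and 8.39, 7.04 and 7.36 CPM with Yijin-tang at 500 µg/mL, against 9.02, 8.74 and 8.54 CPM in vehicle.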

How the results depend on the processing

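No called gene changed direction. The median of the 40 genes for Soshiho-tang against Yijin-tang, -0.01, was 0 with RLE scaling, with DESeq2 and without mitochondrial genes, and 0.01 without Soshiho-tang library 3. With the low-count filter removed, so that more genes entered the adjustment, the count of the 40 genes called was 7 with Soshiho-tang and 8 with Yijin-tang at 100 µg/mL, 4 and 3 at 20 µg/mL, 1 with Okbyeongpung-san at 100 and at 20 µg/mL, and 0 for the difference of dose changes. With only the groups compared in the fit, so with fewer samples, it was 1 with Soshiho-tang and 1 with Yijin-tang at 100 µg/mL, 0 and 0 at 20 µg/mL, 9 with Yijin-tang and 1 with Okbyeongpung-san at 500 µg/mL, 14 with Yijin-tang and 4 with Okbyeongpung-san at 500 against 20 µg/mL, and 7 (3 higher, 4 lower) for Soshiho-tang against Yijin-tang. Without mitochondrial genes it was 4 with Yijin-tang at 20 µg/mL. DESeq2 called 1 with Okbyeongpung-san at 100 and 1 at 20 µg/mL. With only the groups compared, some counts fell and others rose, and the cause of these changes was not tested. With each library left out in turn the counts against vehicle at 20, 100 and 500 µg/mL ranged over 1 to 9, 6 to 13 and 22 to 25 with Soshiho-tang, 3 to 10, 7 to 17 and 19 to 24 with Yijin-tang, and 0 to 1, 0 to 1 and 0 to 7 with Okbyeongpung-san. At 500 against 20 µg/mL they ranged over 13 to 17, 1 to 2 and 0 to 0 for these formulas, for Soshiho-tang against Yijin-tang over 2 to 3, and for the difference of dose changes over 1 to 2. In the fit with Soshiho-tang and Yijin-tang, same-numbered libraries of different groups had correlations of deviations between -0.0628 and 0.0619 over 63 pairs. Their median was 0.00373, against -0.00541 over 126 pairs with other numbers, and 11 of 21 libraries correlated best with their own number. Whether same-numbered libraries share a run or a culture cannot be told from these values. With the replicate block the counts were 25 with Soshiho-tang and 27 with Yijin-tang at 500 µg/mL, 19 and 3 at 500 against 20 µg/mL, and 6 with Okbyeongpung-san. Of the named single-gene values across settings, 6065 kept their sign and their side of the threshold, 321 lost the call and 71 gained it. Another 303, without a call in either setting, changed sign.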
